A study of Mus musculus with 8 samples.

Results

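Serpins are a superfamily of proteins that share a fold and an exposed reactive loop. An inhibitory serpin offers this loop to its target protease as bait, is cleaved there and traps the protease in an irreversible complex. Clade A serpins are secreted, many of them by hepatocytes in large amounts, and include antitrypsin, the antichymotrypsins and carriers of steroid and thyroid hormones, which no longer inhibit proteases. Clade B serpins stay inside cells, and those of clades F to H act in complement control, blood vessel growth and collagen folding. In rat liver the antichymotrypsin-type gene Spi2.1 is a classic target of growth hormone (GH), which acts on it through the transcription factor STAT5.

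The serpin genes described here are the 59 genes, of 24197 in the authors' deposited table, whose symbol is Serpin, a clade letter from a to i and a number with or without a further letter. Serpinc1, Serpind1 and Serpinf2, which encode inhibitors of coagulation and fibrinolysis, were left out of the group. Levels are given in FPKM, fragments scaled by transcript length and library size, so they can be compared between genes. They were followed in liver of male CD-1 mice, an outbred stock, from which the supplier had removed the pituitary at 7 weeks of age. All 4 groups were hypophysectomized and 11 weeks old, so none of them has a pituitary source of GH or of the other pituitary hormones. The untreated group received no GH, and the other 3 groups received a single intraperitoneal dose of recombinant rat GH, 125 ng per g, with livers taken 30, 90 or 240 min after it. The labels speak of a vehicle injection for controls and the design text calls them untreated. Each group consisted of 2 RNA pools, with 4 mice per pool by the legend.

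The authors' deposited table gives a mean over the pools of a group, the ratio of each treated group to the untreated group and an adjusted p, and no value of a single pool. The spread between pools therefore cannot be printed, and whether pools of 2 groups overlap cannot be seen. A gene is called higher or lower below where the authors' adjusted p was below 0.05. All 3 comparisons share the untreated pools, and the times were not tested against each other. The totals recovered from the smallest FPKM steps lay between 5940000 and 17120000 reads per library. For a transcript of 1 kb, 3 reads in the smaller library of a group correspond to a floor of 0.0975 to 0.253 FPKM, for counting error only. Hepatocyte transcripts dominated the libraries, with the albumin gene Alb at 40641 FPKM in untreated liver. In bulk liver, fewer cells of a type and less RNA per cell cannot be told apart.

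Liver expressed a minority of the serpin genes, at levels that spanned 3 orders of magnitude in the plot of FPKM by group. Of the 59, 25 had an average of 1 FPKM or more across the 4 groups and are called measured from here on. The nearest genes on either side of that limit were Serpinb8 (0.839 FPKM) and Serpinb6b (1.05 FPKM). Another 18 genes were detected below it, and 16 were listed at 0 in all 4 groups, 13 of them in clade B. Clade A contributed 17 of the measured genes, and 16 of these lie on chromosome 12, where 23 serpin genes are listed. The 59 genes together made up 1.33% of all FPKM in untreated liver, and 1.38%, 1.27% and 1.26% at 30, 90 and 240 min.

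**Figure D1:**
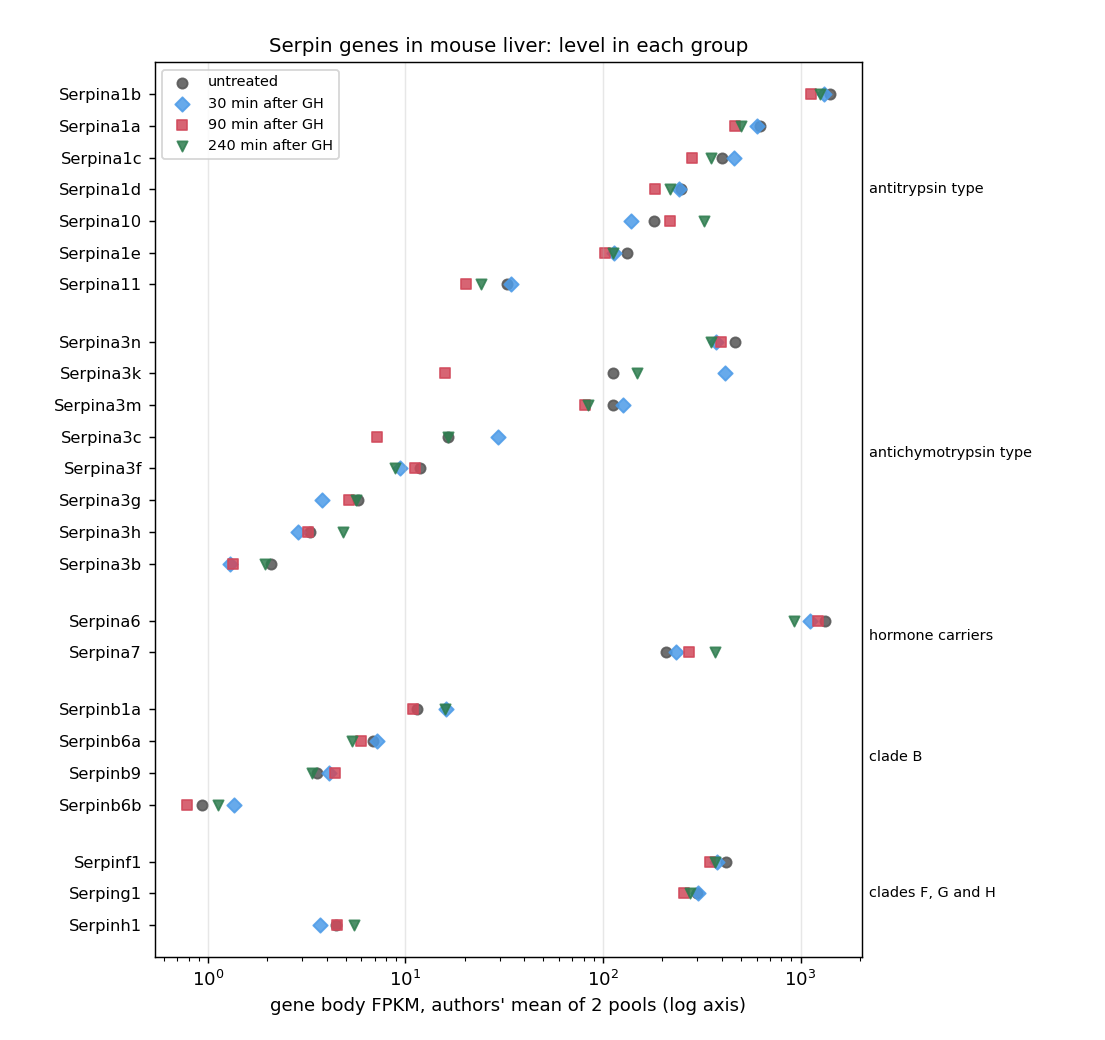
Gene body FPKM (log axis) of 24 of the 25 measured serpin genes, grouped by role and ordered by mean level; each point is the authors' mean of the 2 pools of a group. Serpina1b and Serpina6 lie at the right end in all groups, and the point at 90 min of Serpina3k lies far to the left of its other points.

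The antitrypsin type held the serpin gene with the highest level in untreated liver, Serpina1b, followed by the hormone carrier Serpina6. Serpina1a to Serpina1e are 5 near-identical mouse copies of the gene for antitrypsin, the main plasma inhibitor of neutrophil elastase, and lie between 104966365 and 105195107 of chromosome 12 (mm9). They differ in the reactive loop, among other places, and the loop sets the protease that each copy can bind. The coding stretch of the loop is shown for the 5 copies, from GENCODE M21 transcripts, because the copies differ there. Differences in the loop were not compared with those in the rest of the transcripts. Capitals mark the variable part of 42 bases, and the lower-case flanks are nearly the same in all copies.
Serpina1a: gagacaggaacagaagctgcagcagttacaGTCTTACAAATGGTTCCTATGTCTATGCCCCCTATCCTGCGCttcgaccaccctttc
Serpina1b: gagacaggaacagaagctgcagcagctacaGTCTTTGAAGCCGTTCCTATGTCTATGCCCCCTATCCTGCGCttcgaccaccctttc
Serpina1c: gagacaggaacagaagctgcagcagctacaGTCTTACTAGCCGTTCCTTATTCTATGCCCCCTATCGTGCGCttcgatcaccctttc
Serpina1d: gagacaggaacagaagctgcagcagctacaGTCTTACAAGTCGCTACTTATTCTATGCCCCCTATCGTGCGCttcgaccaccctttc
Serpina1e: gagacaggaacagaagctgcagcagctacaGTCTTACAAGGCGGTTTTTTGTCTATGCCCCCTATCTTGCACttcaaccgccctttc
Over these 87 bases, Serpina1b, Serpina1c, Serpina1d and Serpina1e differed from Serpina1a at 6, 10, 9 and 12 bases.

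The copies also share their promoters. The following windows of 100 bases end 0 to 62 bases upstream of each listed start in the RefSeq promoter table (build GRCm38.p6). They are shown because the copies moved together at 90 min, with capitals on GTTAAT, a sequence bound by the hepatocyte factor HNF1.
Serpina1a, chr12:103863625-103863724, minus strand: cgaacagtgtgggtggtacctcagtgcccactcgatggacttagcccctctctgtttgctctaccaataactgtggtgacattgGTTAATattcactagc
Serpina1b, chr12:103738200-103738299, minus strand: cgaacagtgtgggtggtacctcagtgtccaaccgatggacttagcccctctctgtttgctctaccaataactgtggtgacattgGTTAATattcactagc
Serpina1c, chr12:103904962-103905061, minus strand: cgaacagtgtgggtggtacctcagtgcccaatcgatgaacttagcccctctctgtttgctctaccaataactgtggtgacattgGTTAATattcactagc
Serpina1d, chr12:103773634-103773733, minus strand: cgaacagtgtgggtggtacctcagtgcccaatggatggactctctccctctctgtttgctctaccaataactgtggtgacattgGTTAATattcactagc
Serpina1e, chr12:103956960-103957059, minus strand: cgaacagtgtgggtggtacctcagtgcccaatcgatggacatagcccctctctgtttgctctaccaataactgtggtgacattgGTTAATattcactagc
Of the 100 bases, 97, 98, 94 and 98 were equal to Serpina1a in Serpina1b, Serpina1c, Serpina1d and Serpina1e. All 5 windows carry GTTAAT at the same place. On either strand, this motif occurred in 7.10% of the 32851 promoters in the table. It was in 7 of the 17 measured serpin genes with an entry, the other 2 being Serpina3c and Serpina7. As the 5 copies are nearly equal there, they are not independent of each other. The share among promoters of measured genes was not computed, and a part of the motif in the changes was not tested.

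Transcripts of the antitrypsin copies were lower 90 min after GH, all 5 of them. In the authors' deposited table, Serpina1b, the copy with the highest level, stood at 1406 FPKM in untreated liver and at 1309, 1126 and 1254 FPKM at 30, 90 and 240 min. Serpina1a was listed at 626, 604, 464 and 499 FPKM in the same order, and Serpina1c at 400, 461, 284 and 353 FPKM in the authors' deposited table. Each of the 3 copies had its lowest level at 90 min and an intermediate level at 240 min. Serpina1d went from 249 to 242, 183 and 220 FPKM, and Serpina1e from 133 to 114, 103 and 113 FPKM, per the authors' deposited table. At 90 min the decreases ranged from 1.25-fold for Serpina1b (adjusted p = 0.042) to 1.41-fold for Serpina1c (adjusted p = 0.00029) in the authors' deposited table. Neither the comparison at 30 min nor that at 240 min called any of the 5, and the adjusted p nearest the limit in the authors' deposited table was 0.064, for Serpina1a at 240 min.

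Reads of the copies may have been exchanged among them. Between 35.6% (Serpina1e) and 74.2% (Serpina1c) of the 50-base words of each transcript also occur in another gene, and the sources used here do not say which antitrypsin copies the CD-1 mice carried. The sum over the 5 copies is given for this reason. It is not free of the split, since FPKM divides by the length of each copy (1361 to 1762 bases in GENCODE M21), and shared reads may have been left out. It was 2814 FPKM in untreated liver and 2730, 2160 and 2438 FPKM at 30, 90 and 240 min, which at 90 min is a log2 difference of -0.38. The shares of the sum changed little, with Serpina1b at 49.9% in untreated liver and 52.1% at 90 min and Serpina1c at 14.2% and 13.1%.

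A trend ran through the whole table at 30, 90 and 240 min. Over measured genes with a matched transcript, the log2 ratio fell with GC content (rank correlation -0.58, -0.51 and -0.38). It rose with transcript length, mostly at 90 min (rank correlation 0.08, 0.49 and 0.19). The measured serpin transcripts were shorter than the rest, with a median of 1918 against 3192 bases. The values that follow are those at 90 min. The trend at the 5 antitrypsin copies was -0.27 to -0.21 on the log2 scale. With it subtracted, the 5 values at 90 min moved from between -0.50 and -0.32 to between -0.23 and -0.09 on the log2 scale. The directions stayed, and no adjusted p exists for the corrected values. Hepatocyte markers moved at the same time, in both directions. Of 10 measured, 5 were lower and 2 higher at 90 min, beside 12.5% and 15.9% of all measured genes. The lower ones were Apoa1, Ass1, Pck1, Tat and Ttr, and the higher ones Apob and Cps1. Their summed level was 58192 FPKM in untreated liver and 47705 FPKM at 90 min, of which Alb alone held 40641 and 33875 FPKM. Whether the trend or the hepatocyte content of the pools had a part in the decrease of the antitrypsin genes was not tested.

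**Figure D2:**
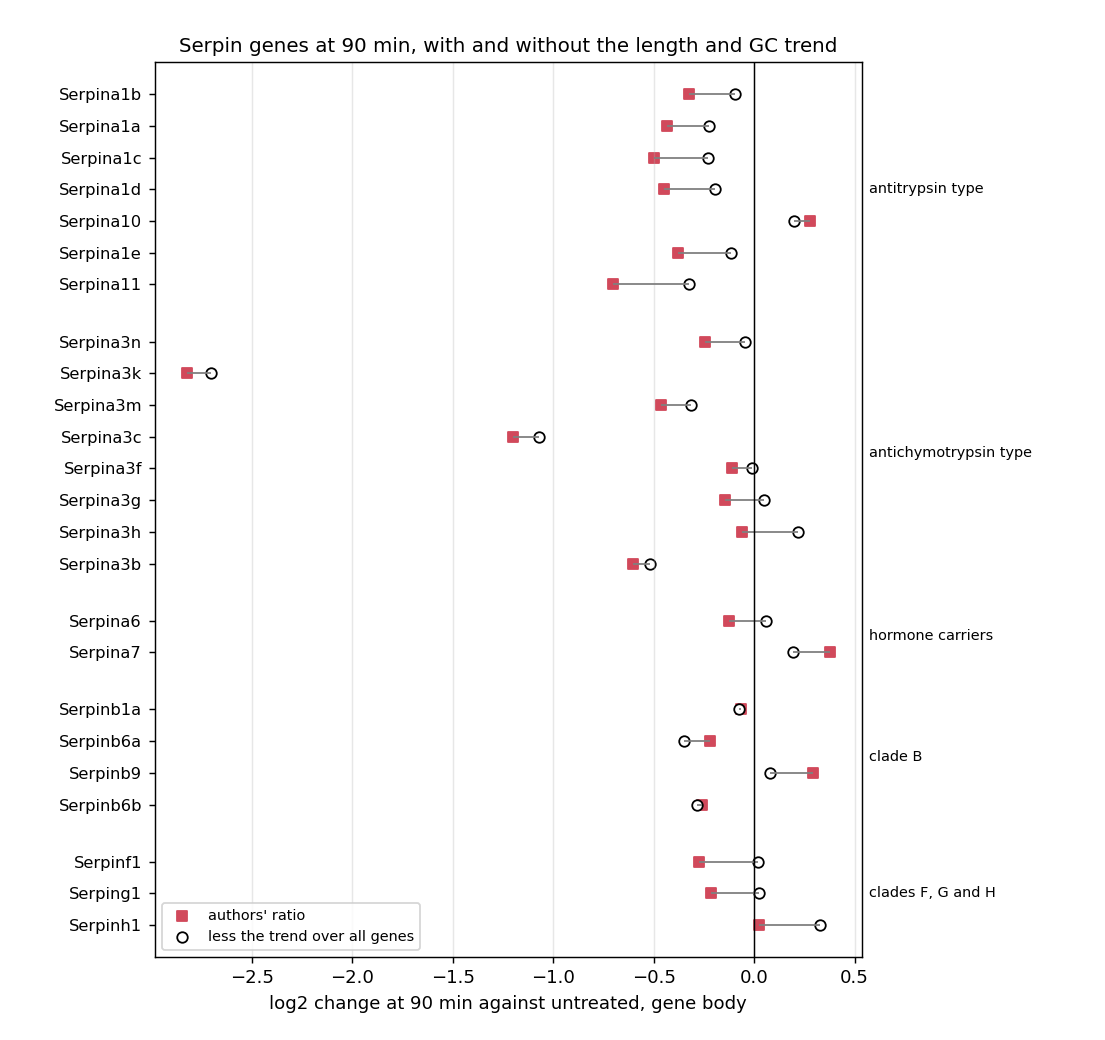
Log2 change at 90 min against untreated over the gene body for 24 of the 25 measured serpin genes, as the authors' ratio (squares) and less the trend with transcript length and GC content fitted over all measured genes (circles). The antitrypsin-type genes move towards 0, and Serpina3k and Serpina3c stay below -1 on both scales.

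Among the other antitrypsin-type genes, Serpina10 rose and Serpina11 fell. Serpina10 (chr12:104854884-104869654, mm9) encodes the protein Z-dependent inhibitor of coagulation factor Xa. In the authors' deposited table its means were 180 FPKM in untreated liver and 138, 220 and 324 FPKM at 30, 90 and 240 min. The highest level was that at 240 min, 1.73-fold above untreated liver (adjusted p = 1.1e-05) in the authors' deposited table. The values at 30 and 90 min were not called. Serpina11, a liver serpin whose target is not established, was listed at 32.7, 34.4, 20.2 and 24.2 FPKM. It was 1.63-fold lower at 90 min (adjusted p = 3.8e-06) and 1.41-fold lower at 240 min (adjusted p = 0.023) in the authors' deposited table. With the length and GC trend subtracted, the log2 value of Serpina11 went from -0.70 to -0.32 at 90 min and from -0.50 to -0.32 at 240 min. Of its 50-base words, 43.9% also occur in Gm28577, so the 2 genes may share reads.

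The remaining genes of this type were rare in liver. Serpina12 encodes vaspin, an adipokine that inhibits kallikrein 7 in human. It stood at 0.331 FPKM in untreated liver, 0.611 at 30 min, 0.0334 at 90 min and 0.168 at 240 min, and was lower at 90 min (log2 ratio -3.22, adjusted p = 9.2e-05) in the authors' deposited table. For its transcript, 3 reads in the smaller library at 90 min are 0.0264 FPKM, so the level at 90 min rests on few reads and the size of the difference is not resolved. Serpina9, known in human as centerin of germinal centre B cells, was listed at 0 in untreated liver, and at 0.402, 0.0689 and 0.990 FPKM at 30, 90 and 240 min. The increase at 240 min was called in the authors' deposited table (adjusted p = 2.6e-07), and no fold is given against a group listed at 0. Serpina5, the protein C inhibitor gene, stayed at or below 0.0654 FPKM, and Serpina1f was listed at 0 throughout.

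The antichymotrypsin type, the Serpina3 genes, held the largest called change among the measured serpins, that of Serpina3k at 90 min. Mouse has a cluster of such genes where human has a single SERPINA3, the acute-phase inhibitor of cathepsin G and chymase, and these copies too differ in the reactive loop. The loop-coding stretches of the 3 copies with the highest untreated levels are shown from GENCODE M21 transcripts, with capitals on the part that differs between copies in length as well as in bases.
Serpina3k: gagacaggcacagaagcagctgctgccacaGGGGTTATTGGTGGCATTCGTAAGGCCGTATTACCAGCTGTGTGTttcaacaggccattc
Serpina3m: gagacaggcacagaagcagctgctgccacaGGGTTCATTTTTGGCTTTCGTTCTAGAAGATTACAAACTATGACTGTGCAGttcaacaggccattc
Serpina3n: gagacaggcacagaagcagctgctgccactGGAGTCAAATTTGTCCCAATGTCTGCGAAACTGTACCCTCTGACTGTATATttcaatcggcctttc
The capitals cover 45 bases in Serpina3k and 51 bases in Serpina3m and Serpina3n. Compared with the antitrypsin copies, the Serpina3 transcripts share fewer 50-base words with other genes, 14% for Serpina3k, 19.1% for Serpina3m and 6.90% for Serpina3n.

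Serpina3k (chr12:105576695-105583949, mm9), which encodes contrapsin, an inhibitor of trypsin-like proteases, had its highest level at 30 min and its lowest at 90 min. Its means in the authors' deposited table were 112 FPKM in untreated liver, 413 FPKM at 30 min, 15.9 FPKM at 90 min and 150 FPKM at 240 min. The ratio at 30 min was 3.91, with an adjusted p of 0.813 in the authors' deposited table, so the comparison did not call it. At 90 min Serpina3k was 7.07-fold lower than in untreated liver (adjusted p = 8.0e-69), and at 240 min it was not called (ratio 1.28, adjusted p = 0.17), in the authors' deposited table. Among the 10736 measured genes, the log2 ratio of Serpina3k ranked 39 from the top at 30 min and 15 from the bottom at 90 min. The trend with length and GC content hardly touched it, since the log2 ratio at 90 min was -2.82 before and -2.70 after the trend was subtracted.

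A large ratio without a call was common at 30 min. Of the 256 measured genes with a ratio of at least 2-fold in either direction at that time, 55 were called, against 385 of 471 at 90 min and 627 of 730 at 240 min. The means do not show how far the 2 pools at 30 min lay apart.

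Serpina3c (chr12:105385116-105392082, mm9) also had its highest level at 30 min and its lowest at 90 min, at lower levels than Serpina3k. The authors' deposited table lists it at 16.5 FPKM in untreated liver and at 29.4, 7.16 and 16.5 FPKM at 30, 90 and 240 min. It was 2.29-fold lower at 90 min (adjusted p = 7.2e-11), and it was not called at 30 min (ratio 1.88, adjusted p = 1) or 240 min (ratio 0.961, adjusted p = 1) in the authors' deposited table. The pseudogene Serpina4-ps1, which does not belong to the 59 genes and was chosen after its values were seen, had means of 7.41, 35.8, 1.46 and 4.86 FPKM in the same order. It was lower at 90 min (log2 ratio -2.32, adjusted p = 1.7e-11) and not called at 30 min (adjusted p = 0.18) or 240 min (adjusted p = 0.29) in the authors' deposited table.

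The remaining measured Serpina3 genes moved less. Serpina3m was listed at 112, 126, 81.4 and 83.7 FPKM and was 1.38-fold lower at 90 min (adjusted p = 0.0070) and 1.39-fold lower at 240 min (adjusted p = 0.015) in the authors' deposited table. Serpina3n, an acute-phase gene and the Serpina3 gene with the highest level, was listed at 466, 374, 394 and 352 FPKM. It was 1.38-fold lower at 240 min (adjusted p = 0.022) and was not called at 90 min (adjusted p = 0.16) in the authors' deposited table. Serpina3f, Serpina3g, Serpina3h and Serpina3b were measured at means of 1.67 to 10.3 FPKM with no call in any of the 3 comparisons over the gene body. The listed locations of Serpina3f and Serpina3g overlap, so their reads may not be separable. The 3 copies under 1 FPKM, Serpina3a, Serpina3i and Serpina3j, were not called either.

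Because Serpina3k weighed so much, the family sum depended on it. All 11 Serpina3 genes added up to 730 FPKM in untreated liver and to 960, 519 and 624 FPKM at 30, 90 and 240 min. Without Serpina3k the sums were 618, 547, 503 and 474 FPKM. The sum at 30 min was thus above untreated liver with Serpina3k and below it without, which no test covers.

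Serpina3c, lower at 90 min, and Serpina3n, not called at that time, have similar promoters. Shown are 150 bases upstream of Serpina3c and the matching bases of Serpina3n, from the RefSeq promoter table (GRCm38.p6). Capitals mark the 9 bases of each that are not matched in the other.
Serpina3c, chr12:104153873-104154022, minus strand: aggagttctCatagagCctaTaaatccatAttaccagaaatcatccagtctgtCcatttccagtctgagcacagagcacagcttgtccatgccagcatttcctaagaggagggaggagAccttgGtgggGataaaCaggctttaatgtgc
Serpina3n, chr12:104406555-104406704, plus strand: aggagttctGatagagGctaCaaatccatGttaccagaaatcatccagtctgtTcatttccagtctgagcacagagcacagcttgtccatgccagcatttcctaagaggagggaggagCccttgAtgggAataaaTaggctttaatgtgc
Over 247 aligned bases the 2 promoters were 92.7% equal. The STAT-type motif TTCNNNGAA, which reads the same on both strands, was in neither of their windows. It was found in 8.30% of all 32851 promoters in the table and in 8 of the 49 serpin genes with an entry (16.3%). Of the 17 measured serpin genes with an entry, 4 had it, namely Serpina11, Serpina3f, Serpina3g and Serpinb6a. The listed locations of Serpina3f and Serpina3g begin at the same base, so these 2 may not be independent. The share among promoters of measured genes was not computed, and a part of this motif in the changes was not tested. Measured genes without an entry in the table, which were not searched, include Serpina10, Serpina3h, Serpina3k, Serpina3m, Serpina6, Serpinb1a and Serping1.

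**Figure D3:**
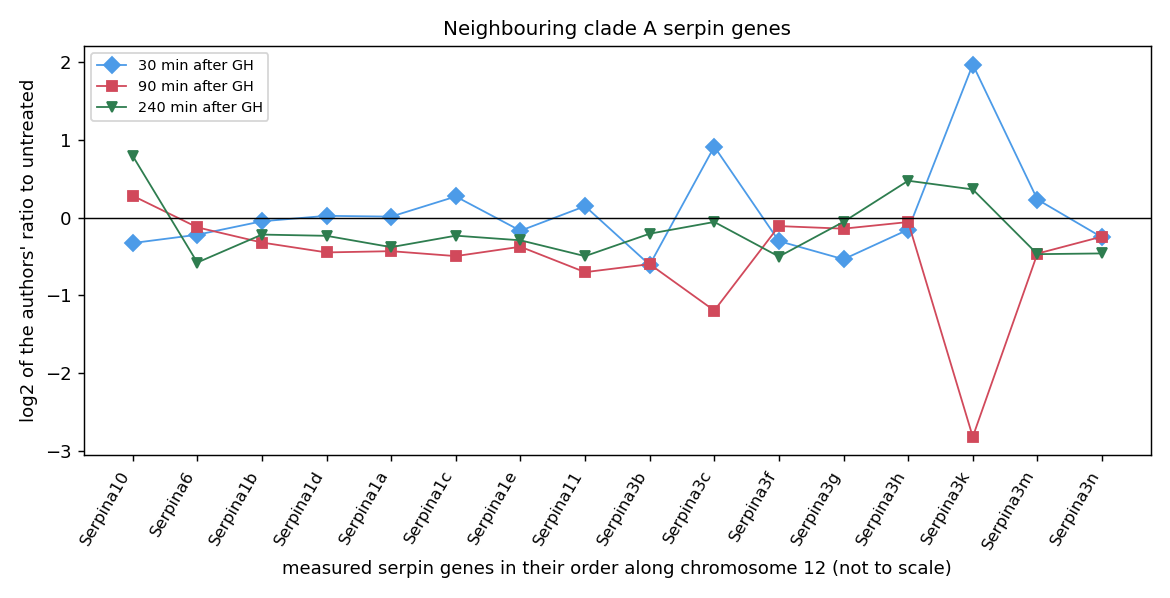
Log2 of the authors' ratio to untreated liver at 30, 90 and 240 min for the 16 measured serpin genes of chromosome 12, in their order along the chromosome and not to scale; lines join neighbours as a guide only. At 90 min Serpina3c and Serpina3k stand at -1.20 and -2.82, Serpina3b next to Serpina3c at -0.60 (not called) and Serpina3m next to Serpina3k at -0.46 (called), while Serpina3f, Serpina3g and Serpina3h, which lie between Serpina3c and Serpina3k, are between -0.15 and -0.06.

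The hormone carriers of clade A parted at 240 min. Serpina6 (chr12:104884841-104895281, mm9) encodes corticosteroid-binding globulin, the plasma carrier of glucocorticoids. In the authors' deposited table it was at 1337 FPKM in untreated liver, where it ranked 37 among all listed genes, and at 1112, 1226 and 929 FPKM at 30, 90 and 240 min. It was 1.49-fold lower at 240 min (adjusted p = 0.00059) and was not called earlier in the authors' deposited table. Serpina7 (chrX:135613788-135619775, mm9) encodes thyroxine-binding globulin, the carrier of thyroid hormone. Its means were 209 FPKM in untreated liver and 233, 271 and 369 FPKM at 30, 90 and 240 min, the untreated level being the lowest. The difference was called at 90 min (1.30-fold, adjusted p = 0.010) and at 240 min (1.70-fold, adjusted p = 3.5e-06) in the authors' deposited table. With the length and GC trend subtracted, the log2 value of Serpina7 went from 0.38 to 0.19 at 90 min and from 0.77 to 0.47 at 240 min. Alb, whose product also carries hormones in plasma, went from 40641 to 27957 FPKM at 240 min, a log2 ratio of -0.59 (adjusted p = 0.00035), in the authors' deposited table.

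The intracellular clade B genes were scarce, and 4 of 27 were measured. Serpinb1a, whose product inhibits neutrophil elastase, was listed at 11.4, 16.2, 10.9 and 15.8 FPKM, and Serpinb6a, an inhibitor of cathepsin G, at 6.88, 7.20, 5.99 and 5.35 FPKM. Serpinb9, the granzyme B inhibitor gene, was listed at 3.58, 4.09, 4.38 and 3.36 FPKM and Serpinb6b at 0.941, 1.36, 0.784 and 1.13 FPKM. None of these 4 was called over the gene body, per the authors' deposited table. Serpinb8, an inhibitor of furin in human, was near 1 FPKM in untreated liver and at 30 and 90 min, and at 0.397 FPKM at 240 min, 2.38-fold lower (adjusted p = 0.0057) in the authors' deposited table. For its transcript, 3 reads in the smaller library at 240 min are 0.0551 FPKM.

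Clade B serpins are abundant in blood cells, and markers of such cells moved between the groups too. At 90 min 12.5% of all measured genes were called lower and 15.9% higher, and at 240 min 8.58% and 14.4%. At 30 min 0.264% of all listed genes were called in either direction. Of 11 measured Kupffer cell and macrophage markers, 1, 4 and 5 were lower at 30, 90 and 240 min, and their sum was 259 FPKM in untreated liver and 232, 194 and 188 FPKM afterwards. The 6 measured neutrophil markers summed to 109 FPKM in untreated liver and to 45.9, 84.6 and 83 FPKM, with 3 higher and 1 lower at 90 min, 2 lower at 240 min and Camp listed at 0 in all groups. The lower one at 90 min was Lcn2, which hepatocytes also express and which held 74.6 FPKM of the untreated sum. Without it the sums of the other 5 were 34.5, 13.8, 50.6 and 21.1 FPKM, so at 90 min the sum was above untreated liver without Lcn2 and below it with Lcn2. Liver endothelium markers numbered 10, of which 1 was lower at 90 min and 1 at 240 min, with sums of 119 to 137 FPKM. Stellate cell and fibroblast markers numbered 11, with 3 higher and 1 lower at 90 min, 2 higher at 240 min and sums of 92.8 to 103 FPKM. Of the 3 measured cholangiocyte markers, 2 were higher at 240 min, when the sum of the 3 was 36.9 FPKM against 16.3 FPKM in untreated liver. The part of these cells in the values of the clade B genes was not tested.

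Among the measured serpins of clades F, G and H, no gene was called over the gene body. Serpinf1, the gene of the vessel growth inhibitor pigment epithelium-derived factor, was at 418, 377, 346 and 369 FPKM in the authors' deposited table. Serping1 encodes the inhibitor of complement C1 and plasma kallikrein and was at 299, 302, 258 and 276 FPKM in that table. The collagen chaperone gene Serpinh1 was at 4.46, 3.70, 4.51 and 5.51 FPKM in the authors' deposited table. Serpine2, the protease nexin gene, lay between 0.480 and 1.24 FPKM with no call in the authors' deposited table, and Serpine3 was listed at 0. Serpini1 of clade I, which encodes neuroserpin, was called higher at 90 min (0.395 against 0.116 FPKM untreated, adjusted p = 0.043) in the authors' deposited table. Its floor of 3 reads in the smaller untreated library is 0.0493 FPKM, so that call rests on few reads.

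**Figure D4:**
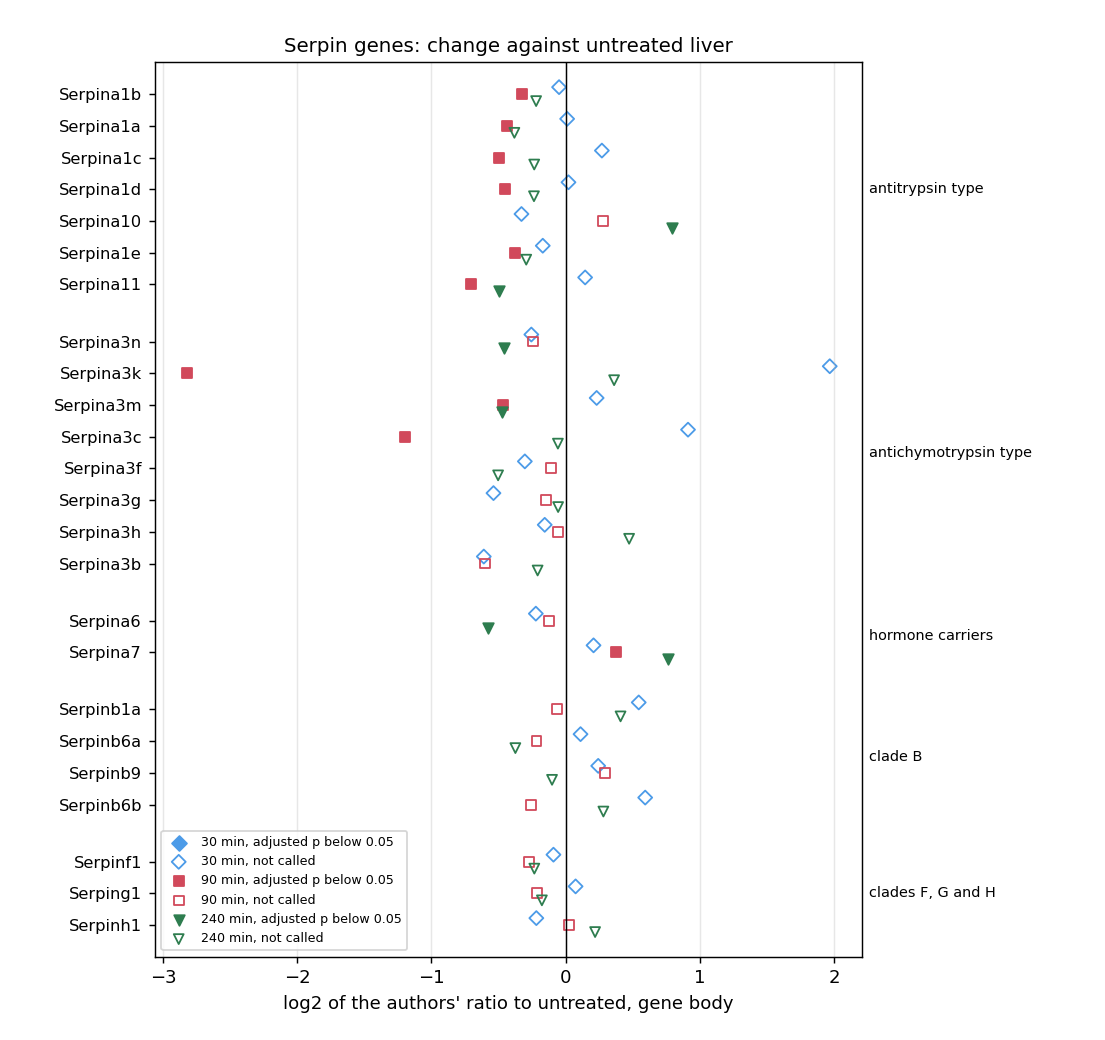
Log2 of the authors' ratio to untreated liver over the gene body for 24 of the 25 measured serpin genes at 30, 90 and 240 min; filled symbols are called (adjusted p below 0.05) and open symbols are not. No symbol at 30 min is filled, 9 of 10 filled symbols at 90 min lie left of 0, and at 240 min 2 filled symbols lie right and 4 left of 0.

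Counted over all 59 genes, the calls over the gene body were mainly decreases at 90 min. At 30 min the authors' deposited table called none of the 59, while 0.264% of all 24197 genes were called in either direction, so 0 of 59 is near the background. The table holds no unadjusted p with which to count smaller differences. At 90 min 11 serpin genes were lower and 2 higher, that is 18.6% and 3.39%, where 5.83% of all genes were called lower and 7.56% higher. Restricted to measured genes, 10 of 25 serpins were lower beside 12.5% of all measured genes, and 1 of 25, Serpina7, was higher beside 15.9%. At 240 min 5 serpin genes were lower and 3 higher (8.47% and 5.08%), against 4.22% and 6.70% of all genes, which is near the background for the increases. Of the measured serpins, 4 of 25 were then lower and 2 of 25 higher, beside 8.58% and 14.4% of all measured genes. Of the 11 lower genes at 90 min, 5 are the antitrypsin copies, which share reads and are not independent of each other.

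The median over the measured serpins gave the same picture on the log2 scale. It was 0.02 at 30 min, -0.26 at 90 min and -0.22 at 240 min, beside 0.02, -0.01 and 0.03 over all measured genes. At 90 min 21 of the 25 ratios were below 1, against 51.1% of all measured genes. With the trend subtracted the median at 90 min was -0.09, with 16 of 25 below 0, and at 240 min -0.17.

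Reads within introns, mostly from RNA that has not been spliced, were deposited with their own FPKM, ratios and adjusted p. Their level in measured serpin genes was at most 5.12% of the gene body level, except in Serpina3g (18.7% in untreated liver) and 1 gene not described here. The authors' intronic ratio was lower than the quotient of the intronic FPKM means for most genes, with a median log2 difference of -0.14, -0.57 and -0.39 at 30, 90 and 240 min over all measured genes. From the 5th to the 95th percentile this difference ran from -0.27 to -0.01, from -0.66 to -0.49 and from -0.59 to -0.18. An intronic level can therefore be equal or higher in FPKM where the authors' ratio is below 1, and calls follow the ratio. Both a mean of 1 gene body FPKM and one of 0.01 intronic FPKM were reached by 23 serpin genes.

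At 90 min the authors' deposited table called 8 of the 59 serpin genes lower over introns and 1 higher (13.6% and 1.69%), against 2.91% and 3.32% of all genes. At 240 min 7 were lower and 3 higher (11.9% and 5.08%), against 2.66% and 2.29%. Serpina3g is among the lower genes at 90 and 240 min, and its intron reads may include exon reads of Serpina3f. At 30 min 1 of the 59 was lower and none higher, against 0.215% and 0.351% of all genes. The median log2 ratio over introns of the 23 genes was -0.09, -0.53 and -0.37 at the 3 times, beside 0.01, 0.06 and 0.04 over all genes that pass the same limits.

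The introns of Serpina3k were not called in any comparison. Its intronic means were 0.848, 5.28, 0.760 and 1.84 FPKM, the highest at 30 min. In the authors' deposited table its intronic ratios were 7.55 at 30 min (adjusted p = 0.11), 0.614 at 90 min (adjusted p = 0.11) and 1.804 at 240 min (adjusted p = 0.58). As a share of the gene body level, the intronic level of Serpina3k was 0.757% in untreated liver, 1.28% at 30 min and 4.79% at 90 min. Serpina3c introns held 0.0499 to 0.190 FPKM, with no call. Whether gene body and intronic changes differ was not tested for this or any other gene.

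Serpina3n had its larger difference in introns. Its intronic means were 11.7 FPKM in untreated liver and 7.80, 8.98 and 2.54 FPKM at 30, 90 and 240 min, the last being the lowest. At 240 min it was 6.05-fold lower over introns (adjusted p = 5.4e-48) beside 1.38-fold lower over the gene body, per the authors' deposited table. Serpina3m was lower over introns at 90 min (2.26-fold, adjusted p = 0.00018) and at 240 min (1.86-fold, adjusted p = 0.0049) in the authors' deposited table, as it was over the gene body. Introns listed for Serpina3g were lower at both times, 1.59-fold (adjusted p = 0.030) and 1.78-fold (adjusted p = 0.0046), in the authors' deposited table. Its gene body was not called. The intronic means of Serpina3g were 1.08 FPKM in untreated liver and 0.850, 1.02 and 0.807 FPKM at 30, 90 and 240 min. The quotient of these means at 90 min was only -0.09 on the log2 scale. The listed location of Serpina3f lies within that of Serpina3g, so exon reads of Serpina3f may count as Serpina3g introns. Over the gene body Serpina3f was at 11.9, 9.36, 11.2 and 8.91 FPKM in the same order. Which gene the intron reads of Serpina3g came from was not tested. Over the 7 named serpin genes called lower over introns at 90 min, the log2 quotients ran from -0.87 (Serpinf1) to 0.05 (Serpina1a), all closer to 0 than the ratios or past it.

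Introns of 2 antitrypsin copies, Serpina1a and Serpina1c, were called higher at 240 min, when no copy was called over the gene body. The intronic sum over the 5 copies was 7.27 FPKM in untreated liver and 7.19, 8.08 and 14.9 FPKM at 30, 90 and 240 min. Serpina1a introns were listed at 3.16, 2.98, 3.27 and 6.38 FPKM, and were 1.57-fold higher at 240 min (adjusted p = 0.041) in the authors' deposited table. Serpina1c introns went from 1.72 to 4.67 FPKM at 240 min, 2.14-fold by the ratio in the authors' deposited table (adjusted p = 0.0055). Introns of Serpina1b (ratio 1.41, adjusted p = 0.11), Serpina1d (ratio 1.02, adjusted p = 1) and Serpina1e (ratio 0.776, adjusted p = 1) were not called at 240 min in the authors' deposited table. At 90 min Serpina1a (log2 ratio -0.52, adjusted p = 0.029) and Serpina1d (log2 ratio -0.99, adjusted p = 0.0025) were called lower, per the authors' deposited table. For Serpina1a that direction turns on the quotient of the means, which is near 0 on the log2 scale (0.05).

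Among the other secreted serpins, the intronic signal of Serpina6 was lower at all 3 times. It was 9.46 FPKM in untreated liver and 4.88, 6.55 and 5.93 FPKM afterwards, and was called at 30 min (2.12-fold, adjusted p = 0.047), 90 min (2.14-fold, adjusted p = 9.8e-11) and 240 min (2.03-fold, adjusted p = 0.00070) in the authors' deposited table. The call at 30 min was the single serpin call at that time over gene body or introns. Serpina7 introns were listed at 8.52, 10.7, 13.9 and 12 FPKM with uncalled ratios of 1.02, 1.11 and 1.06 per the authors' deposited table. Serpina10 introns were at 3.08, 2.78, 8.45 and 3.98 FPKM and were called higher at 90 min (1.85-fold, adjusted p = 7.8e-06) in the authors' deposited table, the time before its gene body call. Serpinf1 introns were 2.70-fold lower at 90 min (adjusted p = 8.1e-10) and Serping1 introns 1.90-fold lower at 240 min (adjusted p = 3.5e-06) in the authors' deposited table. Serpinb6a introns were called lower at 90 and 240 min, at 0.146 FPKM in untreated liver, and those of Serpina9 higher at 240 min, where untreated liver was listed at 0.

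**Figure D5:**
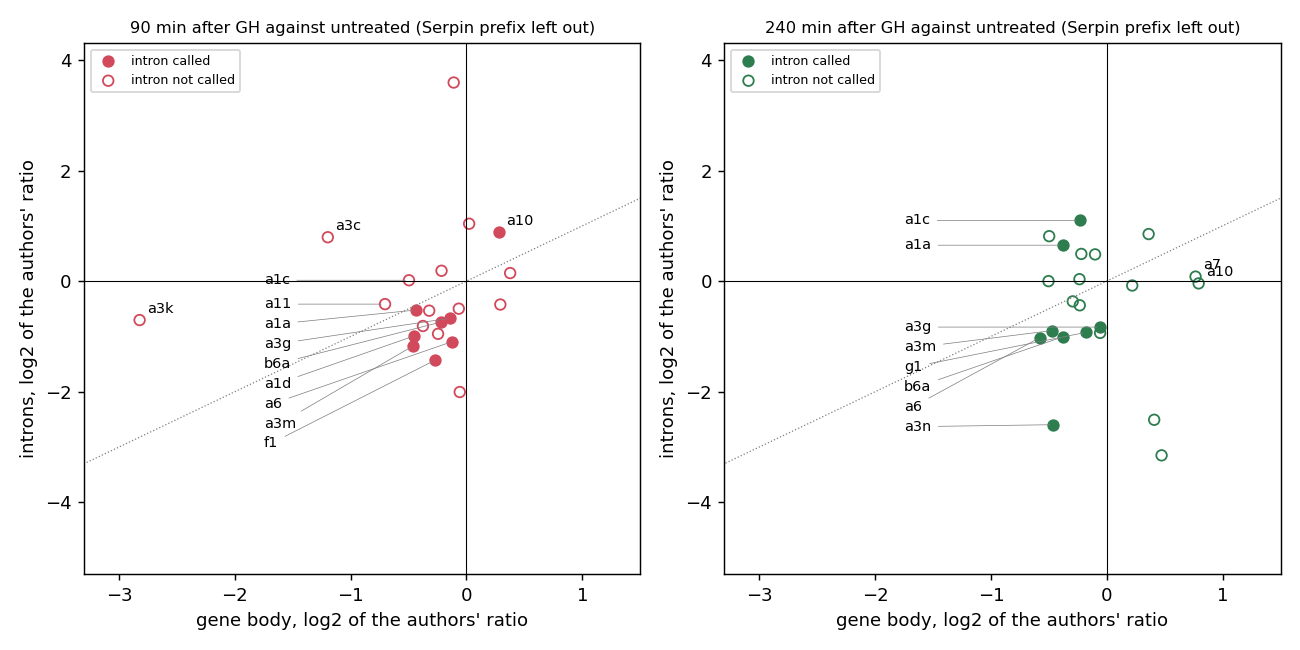
Log2 of the authors' ratio over introns against that over the gene body for 22 of the 23 serpin genes measured in both, at 90 min (left) and 240 min (right); filled points are called over introns, the dotted line marks equal values and labels leave out the prefix Serpin. At 90 min a3k lies near -0.70 over introns and -2.82 over the gene body, and at 240 min a1a and a1c lie above 0 over introns and below 0 over the gene body.

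Genes around the serpins are given from 3 further lists over the gene body, to be read beside the 12.5% lower and 15.9% higher of all measured genes at 90 min and the 8.58% and 14.4% at 240 min. Of 23 measured other protease inhibitors, 5 were lower and 1 higher at 90 min, and 1 was lower and 1 higher at 240 min. At 90 min the lower ones included Cst3, which encodes cystatin C, at 81.5 against 114 FPKM, and Ambp, which encodes bikunin, at 1234 against 1622 FPKM, in the authors' deposited table. With the trend subtracted their log2 values at 90 min went from -0.49 and -0.40 to -0.04 and -0.05. Spink3, a trypsin inhibitor gene, was the higher one at 240 min, by 2.13-fold per the authors' deposited table. Of 24 measured proteases and activators that serpins act on, 8 were lower and 1 higher at 90 min, and 7 lower and 2 higher at 240 min. Those lower at 240 min included the contact factor genes F11 (6.28 to 2.37 FPKM), Klkb1 (43.5 to 25.5 FPKM) and F12 (143 to 101 FPKM) per the authors' deposited table, and C1 inhibitor acts on the proteases they encode. Of 13 measured partners in folding, export and binding, 3 were higher and 2 lower at 90 min and 6 higher at 240 min, among them the chaperone gene Hspa5 (215 to 522 FPKM) and the cargo receptor gene Lman1 (45.5 to 96.4 FPKM), in the authors' deposited table. No gene of the 3 lists was called at 30 min in the authors' deposited table. The medians of the lists at 90 min were -0.04, -0.24 and 0.08 on the log2 scale, beside -0.26 for the serpins. With the trend subtracted they were -0.04, 0.02 and -0.01, beside -0.09 for the serpins. The medians of the proteases and of the partners thus changed sign.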

How the data were processed

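Liver poly-A RNA of 8 libraries, 2 pools for each of 4 groups, was sequenced from strand-specific libraries, per the labels' protocols. The submitters' processing notes name TopHat2, featureCounts, edgeR and build mm9, without versions. The authors deposited mean FPKM per group over the gene body and over introns, per the file headers. The deposited ratio is the authors' normalized ratio of treated over untreated, and the deposited p-value is their adjusted p, by a method that the sources used here do not give. Values of single pools were not analysed here, since the table holds group means, so no count test was run and the authors' comparisons are described. The members, gene lists and alternatives were chosen with earlier results of these data known.

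Log2 of the ratio, medians, sums and counts were computed with Python 3.11.15, numpy 2.4.6, pandas 2.3.3 and scipy 1.17.1. Named are the measured serpin genes, those called in any comparison, and up to 4 genes per list, direction and late time with the smallest adjusted p, of which some are printed. A single measured member is counted and not reported here by name. Length and GC content come from the longest GENCODE M21 transcript, matched by symbol to 10314 of 10736 measured genes. Robust regression (statsmodels 0.14.6) on log2 length, GC, their squares and their product gave the trend, and the step was checked on simulated data. Library totals were recovered from steps of single reads in low FPKM values. Words of 50 bases were compared between transcripts, since the sources used here do not give the read length. Sequences come from GENCODE M21 and the RefSeq promoter table, and figures were drawn with matplotlib 3.10.9. Alternatives were an adjusted p of 0.01, a minimum of 2-fold, a filter on low values or none, quotients of FPKM means with pseudocounts of 1 and 0.1, trend removal, medians of single genes in place of sums, and, chosen after seeing the data, sums without Serpina3k and the antitrypsin copies as 1 gene.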

Additional observations from a re-analysis of the deposited data

How the results depend on the processing

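Counts of called serpin genes shrank under stricter rules. With an adjusted p below 0.01, the genes higher over the gene body at 90 min went from 2 to 0, those lower at 240 min from 5 to 2, and over introns those lower went from 1 to 0 at 30 min and from 8 to 5 at 90 min. With at least 2-fold added to the adjusted p below 0.05, gene body counts at 90 min were 1 higher and 4 lower (from 11). At 240 min they were 1 higher (from 3) and 1 lower. Intron counts under the same rule were 0 higher (from 1) and 4 lower at 90 min, and 4 lower (from 7) at 240 min. A mean of at least 1 FPKM left 1 higher at 90 min over the gene body. The gene body median at 90 min was -0.14 without the filter on low values and -0.095 with the trend removed, and that at 240 min 0 without the filter. The intron median at 30 min was -0.19 with the trend removed and 0.020 with the antitrypsin copies as 1 gene. The intron median at 90 min was -0.00080 and -0.0066 as quotients with pseudocounts of 1 and 0.1 and 0 without the filter, and that at 240 min -0.0023, -0.0081 and 0, and -0.83 with the antitrypsin copies as 1 gene. The log2 sums of the Serpina3 genes (0.39, -0.49 and -0.23 at 30, 90 and 240 min) became -0.26, -0.35 and -0.068 as medians of single genes and -0.18, -0.30 and -0.38 without Serpina3k, which by construction removes its share. The log2 intron value of Serpina1a at 90 min turned from -0.52 to 0.037 and 0.047 as quotients with pseudocounts of 1 and 0.1. For the other changes the cause was not tested. Of 41 called values of single genes, 13 did not pass an adjusted p of 0.01. Removal of the trend kept the direction of every called value in the 12 counts, but moved 23 of the 41 by at least 0.1 on the log2 scale. Quotients with either pseudocount also moved 23 of them by at least 0.1 and reversed 1 more. No paired analysis was possible because the table holds group means and no value of a single pool, and leaving out single pools was not run for the same reason.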
